A study of Mus musculus with 4 samples.

Results

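The cytosolic ribosome of the mouse is built from a set of ribosomal proteins, each encoded by its own gene, and a few of these genes have additional functional copies elsewhere in the genome. The genes described here were the entries whose symbol starts with RPL or RPS and a number, with at most an A, X, L or L1 at the end, together with Rplp0, Rplp1, Rplp2 and Rpsa. The rule found 84 of the 112302 entries that each library lists. Of these, 46 were large subunit genes, 31 were small subunit genes and 7 were paralogs by name (Rpl10l, Rpl39l, Rpl3l, Rpl22l1, Rpl7l1, Rps27l and Rps12l1). The last of these, Rps12l1, is annotated as a processed pseudogene. Rpl10, Rpl36a, Rpl39 and Rps4x are on the X chromosome, and the other 73 genes that are not paralogs by name are autosomal.

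Testis RNA of BALB/C mice was sequenced at 2 fetal ages, E14 and E18 (days 14 and 18 of embryonic life), and at 2 postnatal ages, 3 weeks and 6 months. The labels name no treatment or genotype beyond the strain, the RNA was bought from a commercial supplier, and the number of animals behind a sample is not given. Each age has 1 library, so no difference between ages has a replicate check and no test was made. Levels are RPKM, that is, reads divided by both gene model length and library total, and differences are on the log2(RPKM + 1) scale, later age minus earlier age, which understates the change of low genes.

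Ribosomal protein genes are transcribed in nearly all cells, and their mRNAs carry a short pyrimidine stretch at the 5′ end, the terminal oligopyrimidine tract, through which their translation is regulated together. During male meiosis the X and Y chromosomes are transcriptionally silenced, and X-linked genes remain largely repressed in spermatids. Several X-linked housekeeping genes, among them ribosomal protein genes, have autosomal copies that are transcribed in germ cells.

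The coding sequences of Rpl39 and its paralog Rpl39l are shown because this pair had a large exchange between a gene and its copy. They show how far both coding sequences differ. Whether reads of both genes could be told apart was not tested. Both sequences are from GENCODE vM21 on GRCm38 and read 5′ to 3′, with capitals at the bases that differ between them.
Rpl39: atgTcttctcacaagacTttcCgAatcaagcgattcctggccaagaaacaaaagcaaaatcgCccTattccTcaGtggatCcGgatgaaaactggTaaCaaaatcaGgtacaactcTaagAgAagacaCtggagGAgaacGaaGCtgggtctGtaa
Rpl39l: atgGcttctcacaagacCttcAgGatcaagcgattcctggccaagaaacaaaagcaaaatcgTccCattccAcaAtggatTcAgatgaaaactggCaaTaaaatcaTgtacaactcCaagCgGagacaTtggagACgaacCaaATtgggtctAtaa
Rpl39 lies on the minus strand at chrX:37082520-37085402, and Rpl39l lies on the plus strand at chr16:10170226-10174911. Their coding sequences have 156 bases each, differ at 23 of them (85.26% identity) and share no identical run longer than 38 bases. Of the differences, 5 were at the first base of a codon, 2 at the second and 16 at the third.

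The RPKM values were whole multiples of what 1 read was worth, so reads behind each value were recovered for all 84 genes. The smallest gene model length that gave whole reads in every library was taken. Reads and length are therefore known only up to a common whole factor. Where the true factor is larger, the reads given are too few and the intervals too wide. The totals used for scaling were between 33952471 and 38903334 reads per library. With 3 reads as the limit that a count of 0 allows, a gene model of 1 kilobase could be present at up to between 0.0771 and 0.0884 RPKM without a read. Intervals given here are exact 95% intervals that cover counting error only. Of the 84 genes, 82 reached 1 RPKM in at least 1 library and entered the counts below. Rps15a, with 0.784, 0.541, 0.588 and 0.152 RPKM from E14 to 6 months, did not, nor did Rpl3l.

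As a group the ribosomal protein genes were at a lower level in both postnatal libraries than in both fetal libraries, and at 6 months the X-linked members and the paralogs Rpl10l and Rpl39l stood at opposite ends of that difference. The 84 genes summed to 2399, 2609, 1187 and 1075 RPKM from E14 to 6 months. Their reads were 0.338%, 0.372%, 0.162% and 0.136% of the scaling total. The 4 X-linked genes summed to 59.6, 78.3, 11.2 and 3.50 RPKM in the same order. The 7 paralogs by name summed to 81.3, 91.6, 145 and 135 RPKM. Most of both fetal sums came from the processed pseudogene Rps12l1, which was at a lower level in both postnatal libraries, so the rise of the other paralogs was larger than that of the sum. The autosomal genes that were not paralogs by name summed to 2258, 2439, 1031 and 936 RPKM. In bulk tissue, fewer cells of a type and less RNA per cell cannot be told apart.

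**Figure D1:**
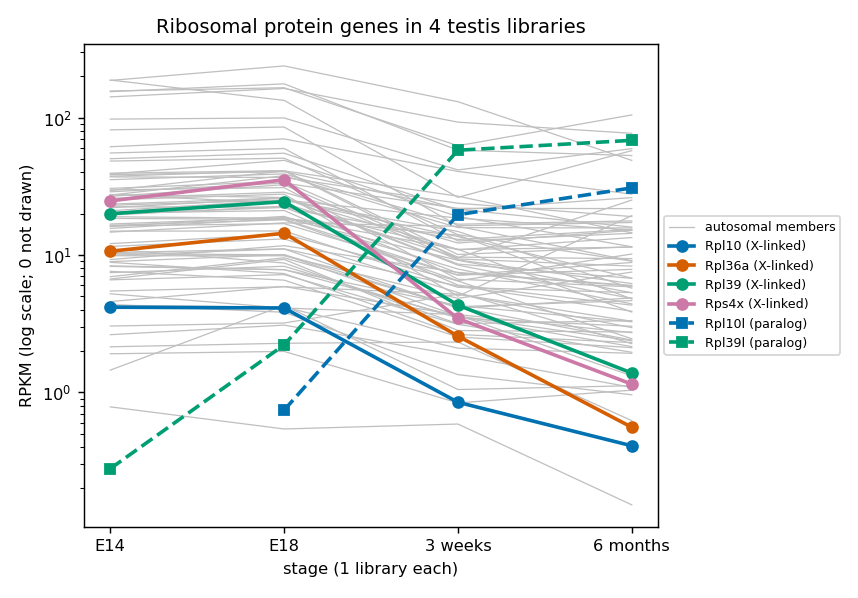
RPKM (log scale, 0 not drawn) at each age for the autosomal members (gray lines), the X-linked members (circles) and 2 paralogs (squares), with 1 library per age. Most gray lines step down between E18 and 3 weeks, the X-linked genes step down further to between 0.408 and 1.38 RPKM at 6 months, and Rpl10l and Rpl39l climb to 30.8 and 68.4 RPKM.

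Among the 77 genes that were not paralogs by name, levels within a library spanned more than 2 orders of magnitude. The median was 19.0 RPKM at E14 and 19.1 at E18, then 7.39 at 3 weeks and 5.86 at 6 months, and 53, 55, 29 and 26 of the 77 reached 10 RPKM. Rpl4, a large subunit protein gene, had 187, 238, 131 and 48.9 RPKM and was the highest at E18 and at 3 weeks. Rplp1, a gene of the acidic stalk of the large subunit, was the highest at E14 with 188 RPKM. Rplp0, whose protein is the base of that stalk, was the highest at 6 months with 105 RPKM. Rpl32 (142, 163, 92.8 and 76.9 RPKM), Rps15 (155, 176, 58.0 and 53.0 RPKM) and Rpl41 (97.7, 99.5, 41.7 and 59.5 RPKM) were among the 3 highest at 1 or more ages. Low values were those of Rps15a, Rpl29 (1.91 RPKM at E14, 1.99 at E18 and 0.838 at 3 weeks), Rpl21 at E14 and Rps27a at E18. The X-linked Rpl10 was among the 3 lowest at 3 weeks (0.846 RPKM) and, with Rpl36a, at 6 months (0.408 and 0.557 RPKM). These levels divide by the length of the authors' gene models. The recovered length equalled the joined exons of all annotated transcripts for 25 of the 84 genes, transcripts with retained introns included.

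The comparison of both fetal ages showed little difference. On the 2-fold limit, 2 of 82 members were higher at E18 than at E14 and 0 were lower, beside 2.17% higher and 1.34% lower among all 42964 entries that reached 1 RPKM (3.54% and 1.64% among protein-coding genes). The median difference of the members was 0.13, beside 0.03 for all entries. Rpl39l was higher, with 0.278 RPKM (9 reads) at E14 and 2.21 RPKM (63 reads) at E18, a difference of 1.33 and a ratio of 7.96 (3.94 to 18.2). Rpl21 was the other, with 1.45 RPKM at E14 and 4.31 at E18 (a difference of 1.11), before 1.05 at 3 weeks and 1.12 at 6 months. The pseudogene entry Rpl21-ps8 had 4.84, 27.6, 3.72 and 4.34 RPKM, so the E18 library was high in both entries. Rpl21-ps8 was picked from 13 Rpl21 pseudogene entries after its values were seen. All 13 together summed to 65.2, 92.4, 52.0 and 27.7 RPKM, and much of their rise at E18 was that of Rpl21-ps8. Rpl10l had 0 reads at E14 and 26 reads (0.743 RPKM) at E18, at least 9.85-fold higher when the observed 26 reads are set against the limit of 3 reads, and with an exact lower bound of 7.46 for the ratio, while its difference of 0.80 on the log2 scale stayed under the limit. Rps4x (0.49) and Rpl23 (0.46) followed. The most negative differences were those of the stalk genes Rplp1 (-0.49) and Rplp2 (-0.31), followed by Rpl30 (-0.28), Rps2 (-0.24) and Rpl36 (-0.20).

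Between E18 and 3 weeks most members were at a lower level. At least 2-fold lower were 47 of 82 members and at least 2-fold higher were 3, beside 10.5% lower and 32% higher among all entries, and 13.2% lower and 24.1% higher among protein-coding genes. The median difference of the members was -1.10, while that of all entries was 0.46 and that of protein-coding genes was 0.23. Of the 76 measured genes that were not paralogs by name, 74 had a difference below 0, 46 were lower and 0 were higher, with a median of -1.16 and a middle range from -1.44 to -0.76. Of the large subunit genes 27 of 46 were lower (median -1.16), and of the measured small subunit genes 19 of 30 were lower (median -1.11). With each library rescaled to an equal sum over all entries the count of lower members was 27 (median -0.87, all entries 0.63), and rescaled to an equal sum over protein-coding genes it was 63 (median -1.45, all entries 0.25).

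Rplp1 and Rps29 were among the 5 members with the most negative differences from E18 to 3 weeks. Rplp1 had 188, 134, 26.3 and 57.6 RPKM, and its 3-week level was 5.08-fold lower (4.59 to 5.64). Rps29, a small subunit gene, had 25.2, 27.7, 5.02 and 19.3 RPKM and was 5.53-fold lower at 3 weeks (4.54 to 6.79). At the other end, Rpl24 had 3.04, 3.20, 5.19 and 2.96 RPKM (a difference of 0.56 from E18 to 3 weeks), and Rps27a, which encodes a fusion of ubiquitin with a small subunit protein, had 2.15, 2.28, 2.33 and 0.622 RPKM (a difference of 0.02). The Rpl24 entry is uncertain, because its gene model was 8472 bases long while the annotated exons of Rpl24 cover 1030 bases. The difference of Rps27a from E18 to 3 weeks lay within counting error, with a ratio of 1.02 (0.812 to 1.28).

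From 3 weeks to 6 months the share of lower members was near that of all entries, and the share of higher members was below it. On the values as deposited, 3 of 82 were higher (3.66%) and 11 were lower (13.4%). Among all entries 9.73% were higher and 14.1% lower, and among protein-coding genes 9.52% and 7.87%. The median difference of the members was -0.27 (all entries, -0.31). These counts depended on the scaling. Rescaling by the median of ratios to the geometric mean over entries present in every library moved the median of all entries by 0.38. After it, 8 members were higher and 0 were lower. The summed level of the members then went from 895 at 3 weeks to 1310 at 6 months, the opposite order to the deposited values. The median of the members was then 0.33 beside 0.07 for all entries. The higher members were Rps29 (ratio 3.86, 3.15 to 4.76), Rpl36 (27.5, 23.8, 9.55 and 25.1 RPKM, ratio 2.63, 2.15 to 3.23) and Rplp1 (ratio 2.19, 1.96 to 2.45). All 3 had been lower at 3 weeks than at E18. Rplp0 followed with 156, 165, 62.5 and 105 RPKM, a difference of 0.74. The third stalk gene, Rplp2, had 11.1, 8.74, 3.16 and 3.33 RPKM and differed by 0.06.

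The 11 lower members at 6 months against 3 weeks were Rpl4, Rpl14, Rpl17, Rpl22, Rpl23a, Rpl36a, Rpl39, Rps3a, Rps4x, Rps27a and Rps27l, and 3 of these are X-linked. Rpl4 was 2.67-fold lower than at 3 weeks (2.55 to 2.80). Rpl17 was 2.91-fold lower (2.38 to 3.58), Rpl22 was 2.86-fold lower (2.56 to 3.21) and Rpl14 was 2.59-fold lower (2.18 to 3.08). Rpl22, an RNA-binding protein gene of the large subunit, had 16.8, 18.7, 11.0 and 3.85 RPKM from E14 to 6 months. On the deposited values, Rpl4, Rpl14, Rpl17 and Rpl22 differed more from 3 weeks to 6 months than from E18 to 3 weeks, but after rescaling by the median of ratios none of them reached the 2-fold limit between both postnatal libraries.

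**Figure D2:**
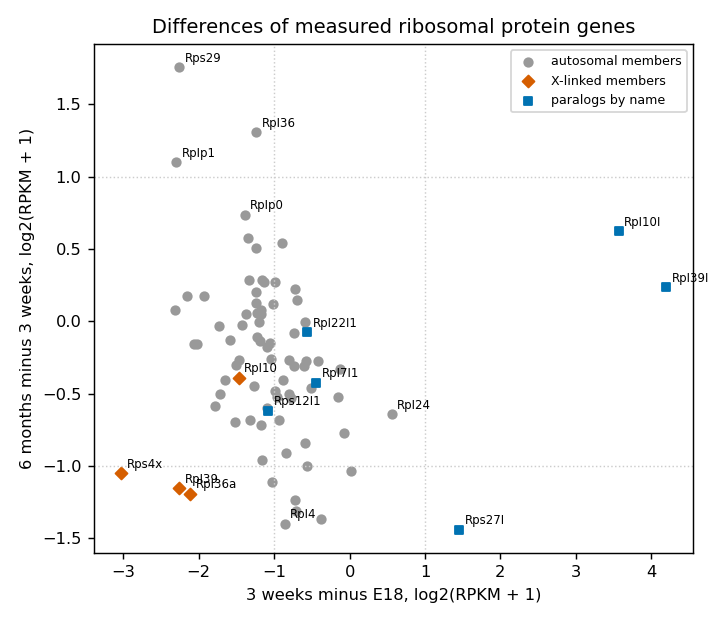
Each point is 1 of the 82 measured members, with its difference from E18 to 3 weeks on the x axis and from 3 weeks to 6 months on the y axis, both in log2(RPKM + 1), and dotted lines at the 2-fold limit; both axes use the 3-week library. Rps4x, Rpl39 and Rpl36a lie at the lower left, with Rps4x at -3.03 on the x axis, Rps29 is at the top with 1.76 on the y axis, and Rpl10l and Rpl39l lie at the far right.

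Across the whole interval from E18 to 6 months, 55 of 82 members were lower and 2 (Rpl10l and Rpl39l) were higher, beside 15.4% lower and 32.9% higher among all entries and 19% and 24.9% among protein-coding genes. The median difference was -1.29, while that of all entries was 0.20 and that of protein-coding genes was -0.05. The count of lower members depended on the scaling. It was 47 with an equal sum over all entries (median -1.11, all entries 0.31) and 41 with the median of ratios (median -0.98, all entries 0.41). With an equal sum over protein-coding genes it was 74 (median -1.80, all entries -0.11). Rps3 (-2.37) and Rpl4 (-2.26) had the most negative differences among autosomal members. Rpl36 (0.07), Rps27l (0.01) and Rpl24 (-0.08) were near 0 at the other end, and Rps27l came to -0.54 with an equal sum over protein-coding genes. The 6-month comparison shares its E18 library with the 3-week comparison.

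All 4 X-linked members were lower in both postnatal libraries than at E18. Rps4x, the X-linked copy of a small subunit protein gene, lies at chrX:102184941-102189394. It had 24.8 RPKM at E14 and 35.3 at E18, then 3.45 at 3 weeks and 1.15 at 6 months, from 1572, 1971, 191 and 67 reads. Against E18 it was 10.2-fold lower at 3 weeks (8.82 to 11.9) and 30.8-fold lower at 6 months (24.1 to 39.9). Rpl39 had 20.0, 24.5, 4.31 and 1.38 RPKM from 1114, 1202, 210 and 71 reads. It was 5.68-fold lower at 3 weeks (4.90 to 6.61) and 17.7-fold lower at 6 months (13.9 to 22.8). Its protein is a very small one in the exit tunnel of the large subunit. Rpl36a, at chrX:134585654-134588062, had 10.7, 14.4, 2.56 and 0.557 RPKM from 686, 816, 144 and 33 reads. It was 5.62-fold lower at 3 weeks (4.70 to 6.76) and 25.9-fold lower at 6 months (18.3 to 37.8). Rpl10, at chrX:74270812-74273135, encodes a protein that is added late in the assembly of the large subunit. It had 4.17, 4.11, 0.846 and 0.408 RPKM from 333, 289, 59 and 30 reads, 4.86-fold lower at 3 weeks (3.66 to 6.54) and 10.1-fold lower at 6 months (6.91 to 15.2). In all 4 genes both fetal libraries were above both postnatal libraries.

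For comparison, the median autosomal member was 2.38-fold lower at 3 weeks and 2.84-fold lower at 6 months than at E18, by the ratio of RPKM without a pseudocount. By that ratio the X-linked genes were the 4 lowest of the 82 members at 6 months, in the order Rps4x, Rpl36a, Rpl39 and Rpl10. The intervals of neighbours in this order overlapped. The next gene was the autosomal Rpl15, at a ratio of 0.173 (0.147 to 0.201) beside 0.0992 (0.0658 to 0.145) for Rpl10. At 3 weeks Rps4x was the lowest, and its interval did not reach that of any of the next. Rpl39 and Rpl36a followed, Rpl10 ranked 7, and the intervals of these 3 overlapped with those of Rps29 and Rplp1. On the log2(RPKM + 1) scale Rpl10 ranked 19 of 82 from the lowest at both ages. Against 3 weeks, the differences of Rps4x, Rpl39 and Rpl36a at 6 months (-1.05, -1.16 and -1.19) came to -0.59, -0.66 and -0.80 after rescaling by the median of ratios, under the 2-fold limit. All 509 measured X-linked protein-coding genes had a median difference of -0.17 from E18 to 3 weeks, with 85 lower (16.7%) and 82 higher (16.1%). The 12100 autosomal ones had a median of 0.24, with 13.1% lower and 24.4% higher. From E18 to 6 months the X-linked ones had a median of -0.54, with 32.8% lower and 24.8% higher, beside a median of -0.03, 18.4% lower and 24.9% higher for the autosomal ones.

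Each of these 4 genes has an autosomal paralog in the files, and in each pair the paralog went from the smaller or a similar share to nearly all of the summed level. Rpl10l lies in 1 exon at chr12:66283379-66284401 on the minus strand. It had 0 RPKM at E14 and 0.743 at E18, then 19.7 at 3 weeks and 30.8 at 6 months, from 0, 26, 683 and 1128 reads. Its 3-week level was 26.5-fold that of E18 (17.9 to 40.8), and its share of the summed RPKM of the pair was 0%, 15.3%, 95.9% and 98.7%. Rpl39l had 0.278, 2.21, 57.9 and 68.4 RPKM from 9, 63, 1635 and 2035 reads, 26.2-fold higher at 3 weeks than at E18 (20.3 to 34.2). Its share with Rpl39 was 1.37%, 8.29%, 93.1% and 98.0%. From 3 weeks to 6 months they differed by 0.62 (Rpl10l) and 0.24 (Rpl39l), and only the first passed the 2-fold limit, at 1.28, after rescaling by the median of ratios.

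The paralogs of the other 2 X-linked genes lie outside the naming rule. Rps4l, listed under the older symbol RPS4Y2 and matched to it as a RefSeq synonym, is annotated as a transcribed processed pseudogene at chr6:148354656-148355598. It had 11.5, 12.2, 21.6 and 40.9 RPKM, a difference of 0.78 from E18 to 3 weeks (1.05 with an equal sum over all entries, past the 2-fold limit) and 1.67 from E18 to 6 months. Its share with Rps4x was 31.7%, 25.6%, 86.2% and 97.3%. Rpl36al had 13.9, 13.4, 18.1 and 16.0 RPKM, and none of its differences reached the 2-fold limit. Its share with Rpl36a was 56.7%, 48.1%, 87.6% and 96.6%. The share of Rpl36al thus moved with the level of Rpl36a, while in the other 3 pairs the paralog was also higher at 6 months than at E18.

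**Figure D3:**
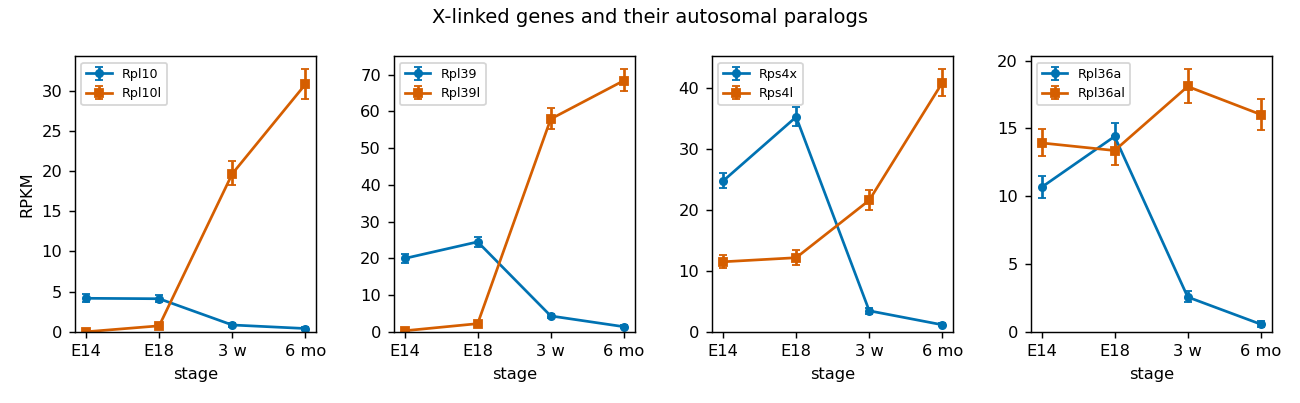
RPKM at each age for the 4 X-linked genes (circles) and their autosomal paralogs (squares), 1 panel per pair with its own axis from 0, with bars for exact 95% counting intervals and 1 library per age. In every panel the X-linked gene is the lower of both at 3 weeks and 6 months, and Rpl36al stays between 13.4 and 18.1 RPKM while Rpl10l, Rpl39l and Rps4l climb.

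In reads rather than RPKM, with no division by length, the paralog shares at 6 months were 97.4% for Rpl10l (96.3 to 98.2), 96.6% for Rpl39l (95.8 to 97.4), 95.4% for Rps4l (94.2 to 96.4) and 95.9% for Rpl36al (94.3 to 97.2). The coding sequences of Rpl10 and Rpl10l have 645 bases each and differ at 98 (84.81% identity), with no identical run over 23 bases, and 89 of the differences are at the third base of a codon. Those of Rpl36a and Rpl36al have 321 bases each and differ at 39 (87.85% identity), 35 of them at the third base. The Rps4x coding sequence and the Rps4l transcript were 80.1% identical over the aligned part.

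Among the other paralogs, Rps27l had 9.45, 9.56, 27.9 and 9.65 RPKM, so only the 3-week library was high, 2.92-fold above E18 (2.29 to 3.76), and the 6-month level was 2.89-fold lower again (2.28 to 3.71). Its parent Rps27 had 27.3, 37.8, 15.8 and 15.7 RPKM, and the share of Rps27l was 25.7%, 20.2%, 63.8% and 38.0% of the summed RPKM. In recovered reads its share was 14.1%, 10.7%, 45.5% (41.3 to 49.7) and 22.5%. These shares rest on 272 bases as the smallest gene model that fit the values. The 816 bases of annotated exons are a whole multiple of it and fit the values equally well, with more reads. Whether Rps27l also passed its parent in reads at 3 weeks therefore cannot be told. Rpl22l1 had 4.24, 4.02, 2.40 and 2.23 RPKM beside the levels of Rpl22 given above, and its share was 20.1%, 17.7%, 17.9% and 36.7% of the summed RPKM but 4.35%, 3.73%, 3.79% and 9.46% of the reads, with a gene model of 552 bases beside 1989 bases of annotated exons. Rpl7l1, whose product is known from ribosome assembly, had 7.72, 7.64, 5.36 and 3.74 RPKM beside 39.0, 48.9, 19.1 and 11.5 for Rpl7. Rpl3l, the striated muscle copy of Rpl3, had 0, 0.124, 0.411 and 0.136 RPKM from 0, 7, 23 and 8 reads, beside 29.8, 30.9, 6.67 and 5.86 for Rpl3. The processed pseudogene Rps12l1 had 59.6, 67.3, 31.3 and 20.0 RPKM.

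Ribosomal protein genes have many processed pseudogenes, and how the authors counted reads that match several places is not given in the sources used here. For 55 of the members, 222 further entries carry the gene's symbol followed by -ps. These entries summed to 3734, 4147, 1851 and 1442 RPKM, more than the members themselves at every age. Their recovered reads (79946, 77747, 31305 and 26061) were fewer than those of the members, though longer gene models that also fit would give more reads. Of the 159 such entries that reached 1 RPKM, 94 were lower and 1 was higher from E18 to 3 weeks (median -1.16), and 149 had a difference of the same sign as their member. The 23 measured members with no such entry had a median of -1.17, with 16 lower, and the 53 with one had a median of -1.10, with 30 lower. The level of a single member that has near-identical copies is therefore uncertain.

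The entries of the X-linked genes show how near-identical copies were valued. Rpl36a-ps1, 97.82% identical to the coding sequence of Rpl36a and 86.29% to that of Rpl36al, had 62.1, 87.3, 13.9 and 5.48 RPKM. Rpl36a-ps3, named after Rpl36a but 99.69% identical to Rpl36al and 87.54% to Rpl36a, had 45.2, 42.3, 64.9 and 56.5 RPKM. The first was low in both postnatal libraries and the second was not. Rpl39-ps, 99.33% identical to Rpl39, had 28.4, 26.7, 4.89 and 1.81 RPKM. Rpl10-ps1 and Rpl10-ps3, both without a difference from the Rpl10 coding sequence, had 8.97, 8.83, 1.05 and 0.82 RPKM and 8.73, 9.80, 2.18 and 1.09 RPKM. With these entries added to the parent, the share at 6 months was 89.6% for Rpl10l and 95.5% for Rpl39l. For Rpl36al the sum then included Rpl36a-ps3 on the side of Rpl36a, and the share was 20.4% at 6 months and 18.2% at 3 weeks.

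**Figure D4:**
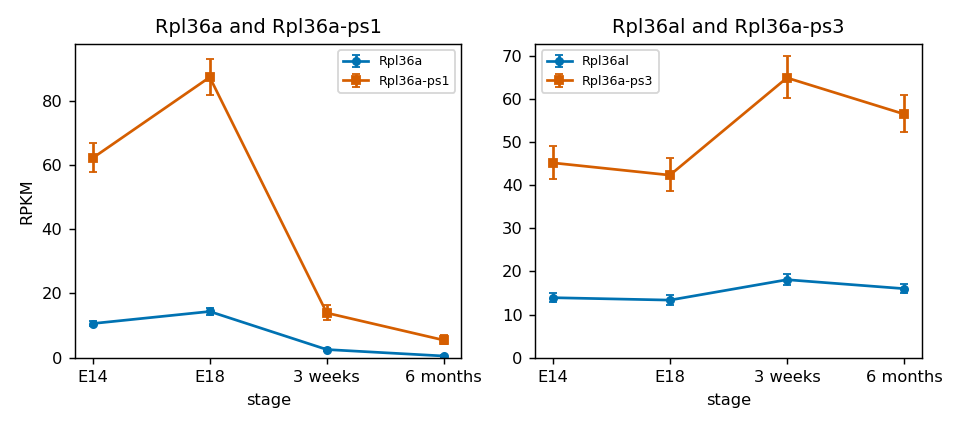
RPKM at each age for Rpl36a with the entry Rpl36a-ps1 (left) and for Rpl36al with the entry Rpl36a-ps3 (right), with bars for exact 95% counting intervals. The left pair drops after E18, to 5.48 RPKM for Rpl36a-ps1 at 6 months, while the right pair is highest at 3 weeks, at 64.9 RPKM for Rpl36a-ps3.

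The start sites of the genes were compared through the RefSeq promoter table on GRCm38.p6, which held 63 of the 84 genes among 27025 in all. Windows of 10 bases before the start and 10 bases from it are shown, because the terminal oligopyrimidine tract is the shared feature of these mRNAs. They cover 3 autosomal genes with long pyrimidine runs, the X-linked genes and, of the paralogs, Rpl10l and Rpl39l alone. The longest run of C and T is in capitals. The windows lie at chr2:39005122-39005141 for Rpl35, chr2:26910797-26910816 for Rpl7a, chr9:120571507-120571526 for Rpl14, chrX:74270806-74270825 for Rpl10, chr12:66284392-66284411 for Rpl10l, chrX:134585644-134585663 for Rpl36a, chrX:37085213-37085232 for Rpl39, chr16:10170218-10170237 for Rpl39l and chrX:102189382-102189401 for Rps4x, and each is written on the strand of its gene (minus for Rpl35, Rpl10l, Rpl39 and Rps4x).
Rpl35: ccgCCCTTTCCTCTTTCTCT
Rpl7a: CTCTTCTTTCTTTCTCCagc
Rpl14: ggCCCTCTCTCTTCTCgctg
Rpl10: tacagtggaagataggCCgc
Rpl10l: CCTCCattttgcggctggcg
Rpl36a: CCCaggcaccgcctataaac
Rpl39: gctccgCCTCTagcgacttc
Rpl39l: aggCCTTTCCggatttccgg
Rps4x: gctgggcggagcaaCCCagg
A run of at least 7 pyrimidines was in this window for 29 of 63 members (46.0%), beside 14.2% of all genes in the table, and a run of at least 10 for 15 members (23.8%), beside 3.55% of all genes. The longest runs were 17 bases in Rpl35 and Rpl7a and 14 in Rpl14. Rpl39l had a run of 7, Rpl10l and Rpl39 had runs of 5, and Rpl36a, Rps4x and Rpl10 had runs of 3, 3 and 2. The annotated start can lie some bases from the start used in a tissue, so a short run says only that these letters are not in this window. In the whole window of the table (250 bases before to 50 after the start), on either strand, CCGGAAG, the core of the site of ETS factors, was found in 25 of 63 members (39.7%), beside 9.93% of all genes. GGGCGG, the GC box, was found in 60.3% beside 38.2%, and TATAAA in 12.7% beside 15.7%.

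Other genes of translation were counted in the same way. Of 6 further entries for ribosomal proteins outside the naming rule, 5 were lower from E18 to 3 weeks and 0 were higher (median -1.13). The lower ones included Fau (12.8, 13.5, 6.11 and 8.02 RPKM), Gnb2l1, the gene of the ribosome-bound scaffold RACK1 (61.9, 62.1, 10.2 and 7.18 RPKM), Rps3a1 and Rps27rt, while Rpl36al was not lower. Rps3a1 is the current symbol of Rps3a, so these entries are not independent. Rps27rt was close to the member Rps27, with -1.22 beside -1.21 from E18 to 3 weeks and -1.28 beside -1.21 from E18 to 6 months. Whether Rps27rt and Rps27 share reads was not tested. A further list of 42 genes mixed translation factors with genes known for pyrimidine tracts, and it was not split by the presence of a tract. Of these, 13 were higher (31.0%) and 5 were lower (11.9%) from E18 to 3 weeks (median 0.28). These shares were near the 32% and 10.5% of all entries (median 0.46), but they describe the mixed list only. Among the lower ones were Eef2, the elongation factor that moves the ribosome along the mRNA (193, 226, 113 and 196 RPKM), Eef1b2 (55.6, 54.6, 15.5 and 9.51 RPKM) and Tpt1 (21.4, 30.3, 9.43 and 7.32 RPKM). The difference of Eef2 was -1.002, just past the limit. With an equal sum over all entries, 4 of the 42 were lower and 18 were higher. Higher were Pabpc1, which binds the poly(A) tail (8.63, 7.39, 71.5 and 49.5 RPKM), and Eif4g3 (2.22, 1.89, 10.5 and 9.21 RPKM).

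Of 39 measured genes of ribosome biogenesis, 9 were higher (23.1%) and 1 was lower from E18 to 3 weeks (median 0.51), beside 32% and 10.5% of all entries and 24.1% and 13.2% of protein-coding genes. From 3 weeks to 6 months 0 were higher and 6 were lower (15.4%), near the 14.1% lower of all entries. Ncl, the nucleolar protein nucleolin, had 5.12, 4.13, 8.85 and 1.53 RPKM. Nop58, of the methylation complex for ribosomal RNA, had 7.58, 7.13, 18.7 and 6.12 RPKM, so its 3-week library was the high one, as for Rps27l. Of 72 measured mitochondrial ribosomal protein genes, 10 were higher (13.9%) and 2 were lower (2.78%) from E18 to 3 weeks (median 0.35), both shares below those of all entries and of protein-coding genes. Under the 3 scalings tried, the median of the 82 members lay between -1.45 and -0.87 in this comparison, that of the translation factors between -0.01 and 0.47, that of the biogenesis genes between 0.27 and 0.70 and that of the mitochondrial genes between 0.11 and 0.56. The direction of the translation factors thus changed with the scaling, with 7 higher and 7 lower both with the median of ratios and with an equal sum over protein-coding genes.

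**Figure D5:**
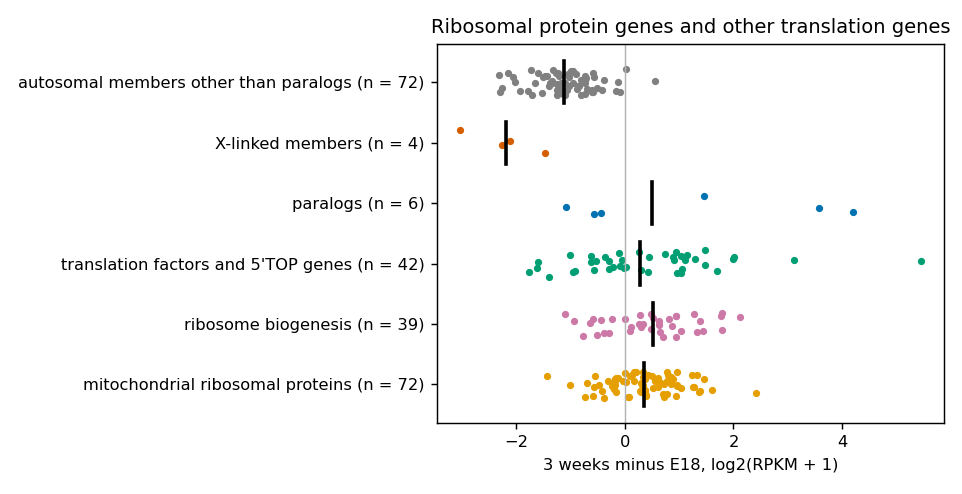
Differences from E18 to 3 weeks in log2(RPKM + 1), 1 point per gene and a black bar at the median of each group, for the members and for other lists of translation genes. The autosomal members center on -1.12 and the X-linked ones on -2.19, while translation factors, biogenesis genes and mitochondrial ribosomal proteins have medians of 0.28, 0.51 and 0.35.

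The cell types in the 4 samples differed along with these values. Markers of spermatocytes (9 genes) summed to 2.16, 5.57, 761 and 814 RPKM, with 0, 2, 9 and 9 of the 9 at 1 RPKM or more and none at 0 in any library. Markers of spermatids (9 genes) summed to 1.98, 2.91, 19.5 and 6572 RPKM, with 0, 0, 4 and 9 at 1 RPKM or more and Acrv1 at 0 at E18. Stroma markers (5 genes) summed to 139, 279, 56.4 and 10.9 RPKM, and Sertoli cell markers (10 genes) to 15.3, 60.9, 87.9 and 52.1 RPKM, with 5, 8, 9 and 8 at 1 RPKM or more and Rhox8 at 0 at E14. The fetal libraries also held RNA of other tissues. Erythroid markers (5 genes) summed to 1956, 1456, 40.4 and 63.5 RPKM, with 5, 3, 2 and 2 at 1 RPKM or more. Liver markers (3 genes) summed to 256, 52.9, 0.209 and 0.144 RPKM, with 3, 3, 0 and 0 at that level. Skeletal muscle markers (5 genes) summed to 186, 44.2, 1.03 and 0.811 RPKM, with 5, 3, 0 and 0. Both fetal libraries differed in cartilage markers (3 genes, 51.0 RPKM at E14 and 0.475 at E18) and kidney markers (3 genes, 2.33 and 31.9 RPKM). Epididymis markers (3 genes) summed to 65.8 RPKM at 3 weeks and at most 1.26 RPKM at the other ages. The part of these cell types in the values of the ribosomal protein genes was not tested.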

How the data were processed

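The authors deposited 1 table of RPKM per testis library, with 112302 entries named by upper-case symbols. The submitters' processing notes list TopHat2 and the build mm10. The labels' protocols name ribosomal RNA depletion, poly(A) selection and a directional kit, while the sample descriptions name depletion alone. The counter and its annotation, like the handling of strand and of reads with several matches, was not given in the sources used here.

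Members were matched to GENCODE vM21 on GRCm38 (83 by symbol, 1 by RefSeq synonym). Differences were taken on log2(RPKM + 1), for entries that reached 1 RPKM in 1 or more libraries, and called at 2-fold. With 1 library per age no test was run. Reads were recovered as whole multiples of 1 read (relative tolerance 5e-09) for 474 of 474 entries above 0. The smallest model length that fit was kept, so reads and length are known up to a common whole factor. The recovered model length equalled the annotated exons for 25 of 84 members. Exact Poisson, and for ratios and shares Clopper-Pearson, 95% intervals cover counting error only. The scripts ran in Python 3.11.15 with numpy 2.4.6, pandas 2.3.3, scipy 1.17.1 and Biopython 1.88 and were tested on simulated data. No protein sequences were used here.

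Named genes were the X-linked members, the paralogs with their parents, the 5 largest differences in each direction, and the 3 highest and 3 lowest levels in each library. The members, lists and pairs were chosen with earlier results of these data known. Genes of the translation and biogenesis lists, Rpl15, the pseudogene entries and the start windows were chosen for naming after their values were seen. Alternatives were another pseudocount, filters, 3 scalings, a 4-fold limit, shares of reads, pseudogene entries added to their parents, E14 as the fetal library and leaving out Rps12l1 or the paralogs. The shares of reads, the counts with pseudogene entries, E14 as the fetal library and leaving out Rps12l1 were added after seeing the data. Some results for single genes are not reported here.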

Additional observations from a re-analysis of the deposited data

How the results depend on the processing

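No paired analysis was possible because each age has 1 library. No called difference of the X-linked genes and the paralogs, the members recomputed singly, changed sign under the pseudocount, the 3 scalings or (X-linked genes alone) E14 as the fetal library. The count of members higher at E18 than at E14 (2) was 1 with the median of ratios, 1 with a minimum of 5 RPKM, 1 with pseudogene entries added, 3 with a pseudocount of 0.1 and 0 at 4-fold. The 47 lower at 3 weeks were 27 with an equal sum over all entries and 9 at 4-fold. From 3 weeks to 6 months the 3 higher were 8 with the median of ratios and 0 at 4-fold, and the 11 lower were 0 in both. The 55 lower from E18 to 6 months were 14 at 4-fold. With pseudogene entries added to the parent, the share was 2.04%, 76.6% and 89.6% for Rpl10l from E18 on, 0.572%, 4.15%, 86.3% and 95.5% for Rpl39l, and 10.6%, 8.49%, 18.2% and 20.4% for Rpl36al from E14 on. In reads, it was 8.25%, 92.0% and 97.4% for Rpl10l and 4.98%, 88.6% and 96.6% for Rpl39l from E18 on, 21.2%, 16.6%, 78.4% and 95.4% for Rps4l from E14 on, and 51.7%, 43.1% and 85.2% for Rpl36al up to 3 weeks. The summed RPKM of members was 2126, 2445, 1354 and 1159 with an equal sum over all entries, 2585, 2478, 895 and 1310 with the median of ratios, and 2318, 2518, 1042 and 939.6 without the paralogs. The scalings moved the median of all entries by 0.17, -0.20 and -0.21 from E18 to 3 weeks (equal sum, median of ratios, equal sum over protein-coding genes). The 30 reads of Rpl10 and 33 of Rpl36a at 6 months set the widest intervals among the X-linked genes.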

Other observations

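Other X-linked genes with autosomal or Y-linked copies gave the following shares of the copy in the summed RPKM, from E14 to 6 months. Pgk2, the germ cell copy of the glycolytic enzyme gene Pgk1, had 1.14%, 0.528%, 96.8% and 99.5%, and its 6-month value rested on 13165 reads beside 92 for Pgk1. Pdha2, the copy of the pyruvate dehydrogenase subunit gene Pdha1, had 0.292%, 0.886%, 90.0% and 96.2%. Rbmxl2, the copy of the splicing protein gene Rbmx, had 0.831%, 6.73%, 75.8% and 95.5%. Utp14b, the copy of the ribosome biogenesis gene Utp14a, had 46.5%, 47.0%, 72.9% and 74.2%. Cstf2t, the copy of the polyadenylation factor gene Cstf2, had 72.8%, 70.3%, 85.4% and 66.9%, and was thus the 1 pair of these whose share was lower at 6 months than at E14. The Y-linked Eif2s3y had 8.39%, 29.4%, 67.0% and 75.5% beside the X-linked Eif2s3x.

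Among mitochondrial ribosomal protein genes, Mrpl39 had the largest difference from E18 to 3 weeks, with 2.16, 2.71, 18.8 and 13.0 RPKM. Mrpl54 had 11.5, 10.5, 28.9 and 36.1 RPKM, Mrps16 had 12.9, 13.3, 6.09 and 6.27 RPKM, and Mrpl14 had 5.82, 6.83, 1.89 and 1.77 RPKM.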
